A study of Mus musculus with 2 samples.

Results

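Cluster 9 is a group of 468 thymocytes out of the 13683 cells of a single-cell RNA sequencing experiment on mouse thymus. Its members were taken from the cluster numbers deposited with the cells, which divide them into 19 clusters. Each cell name says which library, WT or KO, the cell belongs to. The library labelled WT held 180 of these cells and the library labelled KO held 288. The WT library was made from 6 week old mice of the genotype Cdc42f/f, and the KO library from Cdc42f/f CD4Cre animals of that age, so both carry the floxed Cdc42 gene. In the KO mice Cre is driven from the CD4 promoter, which becomes active at the CD4+CD8+ double-positive (DP) stage, so earlier thymocytes and non-T cells keep the gene. Cells of 5 mice were pooled for each genotype and loaded as 1 droplet library of transcript 3′ ends. There was no replicate check on any difference between the libraries, and no test was made.

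A DP thymocyte first rearranges its T cell receptor (TCR) genes with the Rag recombinase and then waits for a signal from peptide and MHC on the thymic epithelium. A cell that receives one switches off recombination, induces early response genes such as Egr1 and Nr4a1, raises the inhibitory receptor CD5 and the activation marker CD69, and goes on to become a CD4 or CD8 single-positive (SP) cell. The β chain of the receptor carries 1 of a pair of interchangeable constant regions, encoded by Trbc1 and Trbc2, and the choice is fixed when the gene is rearranged, before the DP stage.

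Trbc1 was the gene that differed most between cluster 9 and the larger cluster of signalled DP cells, cluster 5, so the stretch that tells the constant regions apart is shown. In GRCm38 (mm10), Trbc1 lies at chr6:41538218-41539881 and Trbc2 at chr6:41546730-41548352, both on the plus strand. Each codes for 521 bases including the stop codon, over 4 exons. The coding sequences were the same at 95.6% of bases, and 22 of the 23 differing bases fell in the last 146, printed here 5′ to 3′ with the differing bases in capitals. These bases, from position 376 of the coding sequence to the stop codon, span exons 2 and 3 and the coding part of exon 4.
Trbc1: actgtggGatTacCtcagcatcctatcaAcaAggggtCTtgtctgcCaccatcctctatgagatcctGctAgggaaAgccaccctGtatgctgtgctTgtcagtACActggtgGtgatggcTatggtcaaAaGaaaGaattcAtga
Trbc2: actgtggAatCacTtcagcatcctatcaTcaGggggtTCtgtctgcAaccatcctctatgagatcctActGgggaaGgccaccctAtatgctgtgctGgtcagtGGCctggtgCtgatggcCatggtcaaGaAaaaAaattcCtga
After the stop codon the transcripts run on for 216 and 171 bases, and none of the 205 words of 12 bases in the Trbc1 tail occurs in that of Trbc2. How the counting split reads that fall in shared sequence was not tested.

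Expression is given in CPM, the unique molecular identifiers (UMIs, each a counted transcript) of a gene summed over the cells of a cluster and library, per 1000000 UMIs in those cells. Intervals in brackets are exact 95% intervals and cover counting error only. The libraries held 29706197 (WT) and 37920214 (KO) UMIs in all, and cluster 9 contributed 622868 and 1128350 of these, with a median of 3382 and 3724.5 UMIs per cell and 5.23% and 5.08% mitochondrial UMIs. Cluster 5 was of similar depth, with medians of 3402 and 3824 UMIs, while the SP cluster 6 was deeper, with 5714 and 5363. A gene was called different between clusters when it differed at least 1.5-fold the same way in both libraries with neither interval holding a ratio of 1, and between libraries when it differed at least 1.5-fold with an interval without a ratio of 1. By construction up to 5% of such intervals miss the true ratio. Of the cell barcodes, 17 occurred in both libraries, and 1 cell of cluster 9 carried such a barcode.

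Cd5, Itm2a and Egr1 were given with the name signalled DP, so their levels describe the cluster and do not check its name. Cd5, an inhibitory receptor whose level follows the strength of the TCR signal, stood at 1076 CPM in the WT library and 1041 in the KO library. Over both libraries cluster 9 was the highest of the 19 clusters for Cd5, with 1054, just ahead of cluster 5 with 1036 and well ahead of cluster 6 with 430. Egr1, an early response transcription factor, was also highest in cluster 9 over both libraries, with 454 against 443 in cluster 5. In the KO library alone Egr1 was higher in cluster 5, at 421 against 385. Itm2a, a membrane protein induced during positive selection, ranked second at 674, after cluster 6 with 1785. Among genes seen in at least 10% of its cells, the 10 with the highest ratio of mean level over all other cells were Nr4a1 (8.42), Egr2 (8.35), Itih5 (7.43), Rapsn (7.30), Egr1 (7.06), A430093F15Rik, Hivep3 (6.62), Cd69 (6.42), Zcchc12 and Lysmd2 (6.35). For Egr2 and Hivep3 cluster 5 was nearly as high, at 62.6 and 357 CPM against 66.2 and 380 over both libraries. Nr4a1 stood at 167 in cluster 5 against 195 in cluster 9, and in the KO library alone it was higher in cluster 5, at 181 against 160. Nr4a1, Egr1 and Egr2 are immediate TCR targets and Cd69 is a surface marker of recent signalling. These genes bear on signalling and not on the DP stage, whose genes are compared below. The cells are called signalled DP-like after the given name, which was not tested. Clusters were made from these same genes, and what follows between clusters is a description, not a test.

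Cluster 9 differed from cluster 5 in few genes, and foremost in the constant region of the receptor. Of 9854 genes with at least 20 UMIs, 13 were called (0.132%), 7 higher (0.071%) and 6 lower (0.0609%). Of 6186 with at least 100 UMIs, 11 were called (0.178%), 5 higher (0.0808%) and 6 lower (0.097%). With a 99.9% interval, chosen after the values were seen, 3 of the 13 remained called. In both libraries the fall of Trbc1 stood far outside the rest of the genes in the plot of cluster 9 over cluster 5.

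**Figure D1:**
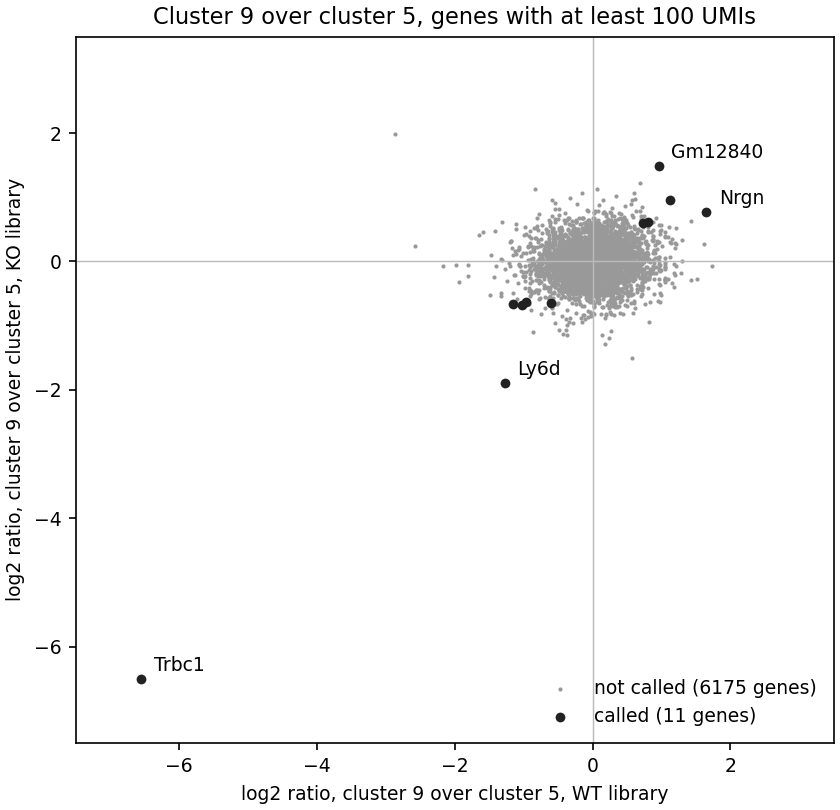
Log2 ratio of cluster 9 over cluster 5 for each of 6186 genes with at least 100 UMIs, in the WT library (x axis) and the KO library (y axis), with the 11 called genes in black. Trbc1 lies at −6.55 and −6.51, and Ly6d at −1.27 and −1.89.

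Trbc1 stood at 78.7 CPM (58.2 to 104) in the WT cells of cluster 9 and at 74.4 (59.4 to 92.2) in the KO cells. In cluster 5 it stood at 7432 (7284 to 7583) and 6814 (6707 to 6922). The log2 ratios were −6.55 (−7.00 to −6.16) and −6.51 (−6.84 to −6.21), and the libraries' intervals overlapped. Trbc2, by contrast, was present in every one of the 468 cells, with a median of 31 UMIs per cell. Its level was 9339 and 9640 CPM in cluster 9 against 7065 and 6696 in cluster 5, log2 ratios of 0.40 and 0.53 that did not reach 1.5-fold. Trbc1 made up 0.790% of the UMIs of both genes in cluster 9 and 50.7% in cluster 5.

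A Trbc1 UMI was seen in 84 of the 468 cells of cluster 9, or 17.9% (14.6 to 21.7), which was 18.3% of the WT and 17.7% of the KO cells. No cell held more than 5, 14 cells held at least 3, and in 0 cells did Trbc1 outnumber Trbc2. In cluster 5, 909 of 910 cells had a Trbc1 UMI, with a median of 24, and 907 also had a Trbc2 UMI, so cells of that cluster carried both transcripts. Clusters 15 and 16, which express B cell and macrophage genes, had a Trbc1 UMI in 23.7% of WT and 25.7% of KO cells. Their median depth was 979 and 2739.5 UMIs. They are not a clean background, since cells of cluster 15 held up to 58 Trbc1 and 92 Trbc2 UMIs. Over both libraries Trbc1 stood at 510 CPM in cluster 15 and at 75.9 in cluster 9. Whether the Trbc1 UMIs of cluster 9 are background was not tested. With each cell thinned to 1000 UMIs the share with a Trbc1 UMI was 8.38% and 4.88% in cluster 9. It was 92.6% and 94.4% in cluster 5 and 18.2% and 14.6% in clusters 15 and 16.

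**Figure D2:**
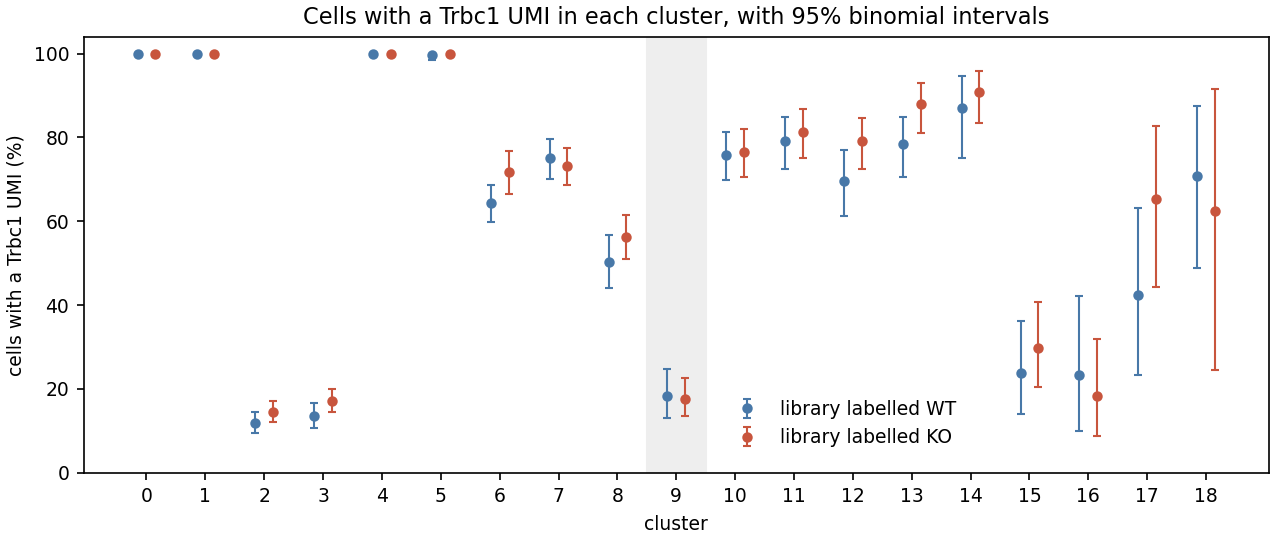
Percent of cells with at least 1 Trbc1 UMI in each of the 19 clusters, by library, with exact 95% binomial intervals and cluster 9 shaded. Clusters 2, 3 and 9 lie under 20%, clusters 0, 1, 4 and 5 at or near 100%.

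The DP clusters 0 to 4 divided the same way, as the plot of Trbc1 by cluster shows. In clusters 0, 1 and 4 all cells had a Trbc1 UMI, and in clusters 2 and 3 only 13.2% and 15.5% did. Among clusters 0 to 4, clusters 2 and 3 held 33.9% of the WT and 32.6% of the KO cells. Within clusters 5 and 9 together, cluster 9 held 33.6% (29.6 to 37.8) of the WT and 34.2% (31.0 to 37.5) of the KO cells, and the intervals overlapped. In the SP cluster 6 the cells were not divided by constant region, and 67.3% had a Trbc1 UMI. UMIs of the variable segments did not differ in the same way: all Trbv segments together gave 169 and 142 CPM in cluster 9 and 131 and 139 in cluster 5.

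Few other genes set cluster 9 apart from cluster 5. Ly6d, a surface protein of immature lymphocytes, was lower, with 91.5 and 104 CPM in cluster 9 and 222 and 387 in cluster 5. Csrnp1, Ubqln1, Gm15340 and Gm525 were also lower, and Exosc2, Inpp4b, Gpr174, Nrgn and Gm12840 were higher. Gpr174, a G protein-coupled receptor for lysophosphatidylserine, stood at 130 and 86.9 CPM against 78.5 and 57.2. Nrgn, which encodes the calmodulin-binding protein neurogranin, came from only 2 WT and 16 KO cells of cluster 9. Trbc1, Ly6d and Gm12840 were the 3 genes that stayed called under the 99.9% interval and under thinning to 1000 UMIs.

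No gene of the lists of signalling, lineage, migration or survival genes was called between clusters 9 and 5 other than Trbc1. The 19 TCR signal reporters with enough UMIs had a median log2 ratio of 0.07, against 0.02 over all genes. The clearest lean was in the resting DP programme, the recombination and DP stage genes, whose 18 genes had a median of −0.48 with 2 above 0 and 0 called. Rag1, a subunit of the recombinase, stood at 183 and 155 CPM in cluster 9 and at 267 and 304 in cluster 5. Dntt, which adds bases at receptor junctions, stood at 241 and 328 against 407 and 386. Cd69 stood at 493 and 417 against 370 and 371.

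Against the resting DP clusters 0 to 2, TCR reporters were higher in cluster 9 and recombination genes lower. Of 12346 genes, 1261 were called (10.2%), 622 higher (5.04%) and 639 lower (5.18%), and of the 9273 with at least 100 UMIs, 527 were higher (5.68%) and 638 lower (6.88%). Of the 19 TCR signal reporters with at least 20 UMIs, 16 were higher and 0 lower, with a median log2 ratio of 4.07 against −0.06 over all genes. Nr4a1, an orphan nuclear receptor and immediate TCR target, had the highest ratio of the genes named by rule. It stood at 257 (219 to 300) and 160 (138 to 186) CPM in cluster 9 and at 1.77 and 1.97 in clusters 0 to 2, log2 ratios of 7.12 and 6.32. Egr2, a partner of Egr1, stood at 94.7 and 50.5 against 1.03 and 0.394. Cd5 rose from 50.8 and 57.0 to 1076 and 1041, and Itm2a from 21.3 and 20.8 to 910 and 543. These intervals lay far apart in both libraries.

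Several other gene groups were higher as well. Among the feedback genes of the ERK, NFAT and NF-κB pathways, 9 of 22 were higher and 2 lower, the higher ones including the phosphatases Dusp1, Dusp2, Dusp5 and Dusp6. Among genes of agonist and negative selection, induced by strong TCR signals, 11 of 15 were higher and 2 lower, with a median of 4.22. Ikzf2, which encodes the transcription factor Helios, stood at 886 and 846 CPM against 53.5 and 51.0. Hivep3, a zinc-finger factor, stood at 437 and 349 against 13.4 and 10.4. The regulatory T cell factor Foxp3 had 0 UMIs in the cells of cluster 9. In the AP-1 and early stress list, whose genes are also induced by tissue dissociation, 9 of 15 were higher and 2 lower. The part of dissociation in the levels of Egr1, Fos and Junb was not tested, while Atf3 and Hspa1a had 0 UMIs in cluster 9.

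The survival genes changed in both directions. Bcl2, which protects against cell death, stood at 263 and 168 CPM in cluster 9 and at 12.3 and 16.3 in clusters 0 to 2. Bcl2l1, the survival gene of resting DP cells, stood at 35.3 and 23.9 against 175 and 170. Bcl2l11, which encodes the death inducer Bim, was also higher, at 165 and 229 against 67.4 and 60.8. Of 34 Cdc42, actin and ERM genes 14 were higher and 1 lower, with a median of 0.40. Actb stood at 12900 and 11838 against 5819 and 5717, and Tmsb10, a thymosin that binds free actin, at 5309 and 5805 against 609 and 812. Of 20 genes of glycolysis and biosynthesis, 9 were higher and 0 lower.

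Recombination and DP stage genes were lower. Of the 18 genes of the resting DP programme, 0 were higher and 16 lower, with a median of −2.36. Rag1 fell from 3251 (3209 to 3295) and 2985 (2952 to 3019) to 183 (151 to 220) and 155 (133 to 180), log2 ratios of −4.14 and −4.26. A Rag1 UMI was seen in 18.9% and 23.6% of cells of cluster 9, and in 8.60% and 24.3% of the cells of clusters 15 and 16. The share in the KO cells was thus not above that of those clusters, which are not a clean background. Whether the Rag1 UMIs of cluster 9 are background was not tested. Arpp21, a DP stage phosphoprotein, stood at 231 and 245 against 1524 and 1473. Trbc1 was called lower here too, but its direction depended on the reference: the log2 ratio was −5.95 against clusters 0 to 2, 0.51 against cluster 2 alone and 0.51 against clusters 2 and 3, both references being chosen after the values were seen.

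The coreceptor genes Cd4, Cd8a and Cd8b1 were lower than in resting DP cells. Cd8b1 stood at 1130 and 1515 CPM in cluster 9 and at 3446 and 3645 in clusters 0 to 2. Cd8a stood at 869 and 1056 against 1825 and 1963. Cd4 stood at 122 and 208 against 567 and 648, and was seen in 29.4% of WT and 46.2% of KO cells of cluster 9 against 14.0% and 17.6% of cells in clusters 15 and 16. With cells thinned to 1000 UMIs these shares were 9.50% and 15.7% against 11.4% and 11.2%, so they were close to those of clusters 15 and 16. Those clusters also hold receptor transcripts and are not a clean background. Gata3, a factor needed for the CD4 lineage, was higher, at 401 and 314 against 46.4 and 52.7. Lef1 was also higher, at 1299 and 948 against 304 and 276.

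**Figure D3:**
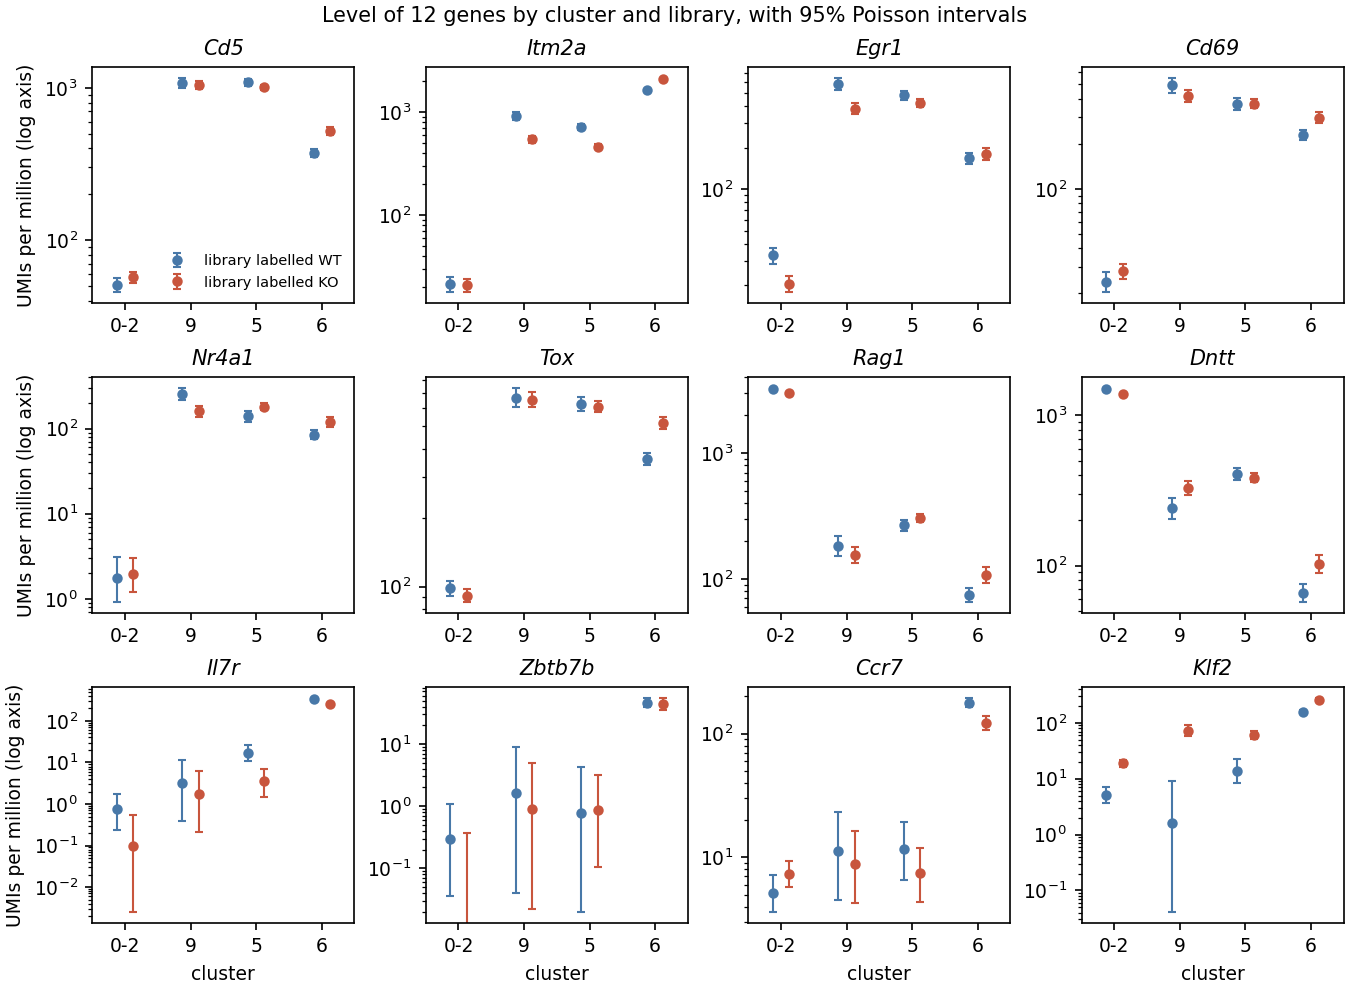
Level of 12 genes in CPM (log axes) in clusters 0 to 2, 9, 5 and 6, by library, with exact 95% Poisson intervals. Cd5, Egr1, Cd69, Nr4a1 and Tox are higher in clusters 9 and 5 than in clusters 0 to 2, Rag1 and Dntt are lower, and Il7r, Zbtb7b and Ccr7 are highest in cluster 6 of those drawn. Zbtb7b had 0 UMIs in the KO cells of clusters 0 to 2, where only the interval is drawn.

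Compared with the SP cluster 6, cluster 9 had higher levels of many DP programme genes and lower levels of many SP maturation genes. Of 10398 genes, 836 were called (8.04%), 474 higher (4.56%) and 362 lower (3.48%), and of the 6759 with at least 100 UMIs, 405 were higher (5.99%) and 307 lower (4.54%). The balance between directions depended on scaling: 56.7% of calls were higher on the reported scale, 41.7% with totals without ribosomal protein and mitochondrial genes, 40.0% with TMM and 40.9% with DESeq2 size factors. These scalings moved the median log2 ratio of all genes from 0.10 to −0.03, −0.05 and −0.04, and list medians below are to be read against 0.10. Of 85 ribosomal protein genes 0 were higher and 20 lower.

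In the resting DP programme, 11 of 18 genes were higher than in cluster 6 and 0 lower, with a median of 1.14. Bcl6, a repressor expressed in DP cells, stood at 120 and 114 CPM against 16.7 and 20.7. Myb, a factor of immature T cells, stood at 446 and 487 against 69.1 and 105. Cxcr4, the chemokine receptor that keeps DP cells in the cortex, stood at 124 and 136 against 20.3 and 23.9. The other named genes that were higher were Aqp11, Nebl, H2-Q2, Ntrk3, Dhrs3, Dennd4c and Endou, with log2 ratios from 2.14 to 3.03. Cd8a and Cd8b1 were also higher than in cluster 6, by log2 ratios of 1.21 and 1.72 for Cd8a and 1.17 and 1.67 for Cd8b1.

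Several genes of SP cells had few or no UMIs in cluster 9. Il7r, the receptor for the survival cytokine IL-7, had 2 UMIs in each library of cluster 9, against 335 and 252 CPM in cluster 6. Ccnd2, a D-type cyclin, stood at 3.21 and 3.54 against 584 and 336. Zbtb7b, which encodes the CD4 lineage factor ThPOK, had 1 UMI in each library of cluster 9 against 142 and 82 in cluster 6. Runx3, the CD8 lineage factor, stood at 14.4 and 16.8 CPM against 90.8 and 64.3. Cd40lg, a marker of CD4 lineage cells, was intermediate, at 25.7 and 31.9 against 96.7 and 122, with 0 UMIs in clusters 0 to 2. Ccr7, which guides cells to the medulla, stood at 11.2 and 8.86 against 179 and 122, and the egress receptor S1pr1 had 0 and 2 UMIs against 58 and 21. Xcl1, Cd7, Lfng, H2-Q7 and Acvrl1 had 0 UMIs in cluster 9. Innate-like T cell markers summed to 143 and 45.7 CPM in cluster 6, with 261 and 67 UMIs of Nkg7, against 3.21 and 4.43 CPM in cluster 9. Cluster 6 may thus hold cells other than conventional SP cells, and their part in these differences was not tested.

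As groups, 11 of 20 SP maturation genes were lower and 0 higher than in cluster 6, with a median of −1.50 and 7 of them above 0. Against clusters 0 to 2, 6 of 15 SP maturation genes were higher, the membrane proteins Ms4a4b and Ms4a6b and the GTPases Gimap3, Gimap4, Gimap5 and Gimap6, and 1 was lower, Ly6e. In the interferon response list 12 of 20 were lower and 0 higher, with a median of −1.48. Isg15, an interferon-induced modifier, stood at 41.7 and 27.5 against 250 and 93.5. The TCR reporters were mostly above cluster 6, with 8 of 18 higher and 2 lower, the latter being Itm2a and Icos. Cd5 had log2 ratios of 1.53 and 1.00, and Egr1 of 1.79 and 1.09. Itm2a went the other way, with −0.82 and −1.92, and this call was lost in the clusters at resolution 1.8 and resolution 2.

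The share of cells in cluster 9 was 2.94% (2.53 to 3.40) of the WT and 3.81% (3.39 to 4.26) of the KO library, a ratio of 1.29 (1.07 to 1.57). Cluster 5 made up 5.81% and 7.33%, a ratio of 1.26 (1.10 to 1.45). The SP cluster 6 moved the other way, from 7.83% to 4.18%, a ratio of 0.533 (0.461 to 0.616). As a share of clusters 9 and 6 together, cluster 9 was 27.3% of the WT and 47.7% of the KO cells. Each share rests on 1 pooled library, and the spread between mice is unknown.

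Within cluster 9, the libraries differed in a small share of genes. Of 7500 genes with at least 20 UMIs, 346 were called (4.61%), 218 higher in KO (2.91%) and 128 lower (1.71%), with a median log2 ratio of 0.01. The excess of higher calls was not kept with cells thinned to 1000 UMIs, where 102 of 3945 genes were higher and 103 lower. Thinning evened the depth per cell but not the summed UMIs, since 179 WT and 287 KO cells were left. Fewer genes had enough UMIs, and the part of depth in the excess was not tested. Without thinning, 213 of 5022 genes with at least 50 UMIs were called (4.24%), 135 higher (2.69%) and 78 lower (1.55%). With a 99.9% interval and at least 20 UMIs, 42 genes were called, 28 higher and 14 lower. Because most calls did not remain under the wider interval, genes past it are given most room. Cdc42 stood at 438 (WT) and 399 (KO) CPM, a log2 ratio of −0.14 (−0.36 to 0.09). The deleted exon 2 is not what 3′ counting reads, so Cdc42 does not check the labels. The cell names also carry Cdc45 in place of Cdc42.

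Genes of the TCR response leaned lower in the KO cells, though Cd5 did not. Of 18 TCR signal reporters with enough UMIs, 5 were lower and 0 higher, a share above the 1.71% of all genes called lower, with a median of −0.12. Itm2a was 910 (837 to 988) in WT and 543 (501 to 588) in KO cells, 1.68-fold lower, a log2 ratio of −0.74 (−0.91 to −0.58). It was seen in 52.2% and 46.2% of cells. Side by side, its log2 ratio was −0.63 in cluster 5 and 0.36 in cluster 6. Clusters 9, 5 and 6 come from the same libraries, so these values are not independent.

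Egr1 was 580 (521 to 643) in WT and 385 (349 to 423) in KO cells, a log2 ratio of −0.59 (−0.80 to −0.39). That ratio passed the 99.9% interval but lay at the 1.5-fold limit, and it was −0.46, no longer called, with cells thinned to 1000 UMIs. In cluster 5 the Egr1 ratio was −0.19 and in cluster 6 it was 0.11. In the resting clusters 0 to 2, at 32.9 and 20.6 CPM, it was −0.68 (−0.96 to −0.40). The lower Egr1 in the KO library was thus not particular to cluster 9. Nr4a1 was 257 in WT and 160 in KO cells, a log2 ratio of −0.68 (−0.99 to −0.36), and came from only 38 WT and 55 KO cells. These were 21.1% and 19.1% of cells, and 9.50% and 10.1% with cells thinned to 1000 UMIs. Nr4a1 UMIs numbered up to 18 in 1 WT cell and 12 in 1 KO cell. In cluster 5 its ratio was 0.36 and in cluster 6 it was 0.51, and in the clusters at resolution 1.8 that match cluster 9 it was −0.58 and not called. Egr2 had a log2 ratio of −0.91 (−1.46 to −0.36) and Nr4a3 one of −1.01 (−2.01 to −0.02), and neither passed the 99.9% interval.

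Other reporters were close in the libraries. Cd5 was 1076 (996 to 1160) in WT and 1041 (983 to 1103) in KO cells, a log2 ratio of −0.05 (−0.18 to 0.09). Tox, a factor required for CD4 lineage development, was 668 and 655. Cd69 was 493 and 417, a log2 ratio of −0.24 (−0.45 to −0.03) that did not reach 1.5-fold. Dusp6, an ERK phosphatase, was the 1 feedback gene of 18 that was called, with 65.8 and 31.9 and a log2 ratio of −1.04. The Dusp6 call was lost under 2 alternatives, and under the wider interval 0 of the 18 feedback genes were called. Of the 21 genes of the TCR complex and proximal kinases, 0 were called. Both lists are short, and 4.61% of all genes were called in either direction, so neither count sets its list apart.

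**Figure D4:**
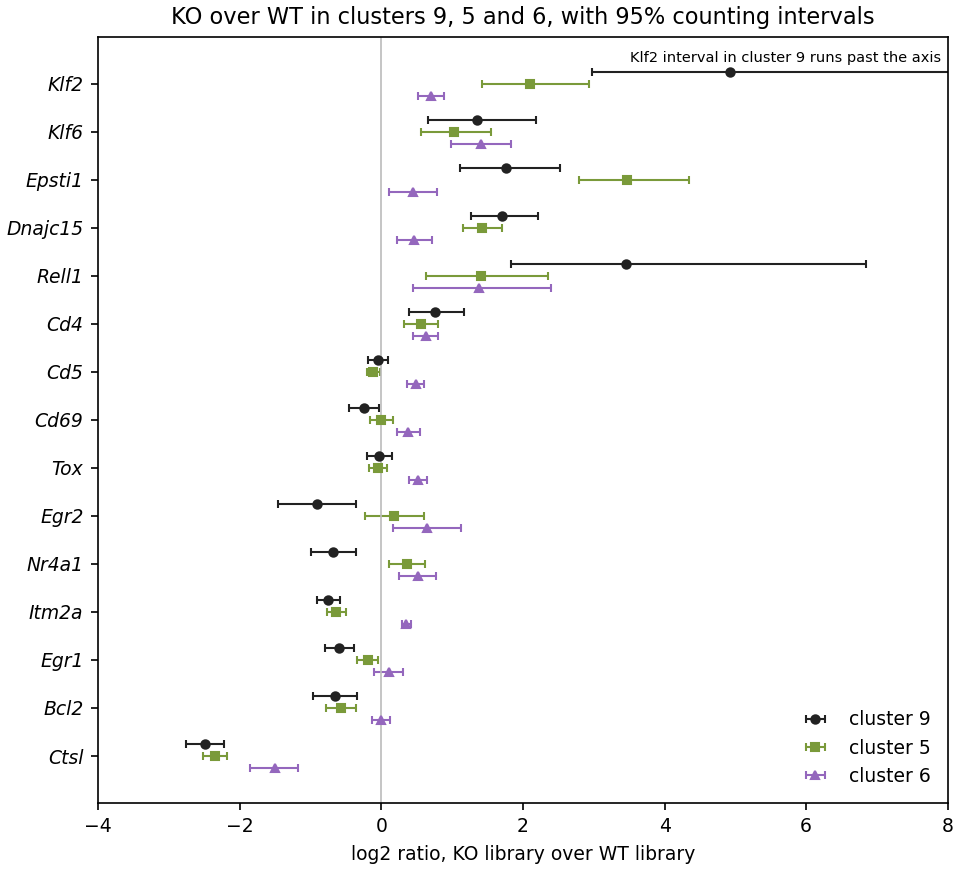
Log2 ratio of the KO over the WT library for 15 genes in clusters 9, 5 and 6, with 95% counting intervals. In cluster 9, Klf2, Rell1, Epsti1, Dnajc15, Klf6 and Cd4 lie above 0, Cd5 and Tox at 0, and Nr4a1, Itm2a, Egr1, Bcl2 and Ctsl below. The Klf2 interval in cluster 9, 2.98 to 10.82, runs past the axis.

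Klf2, a factor that turns on egress and quiescence genes in mature T cells, had 1 UMI in 1 WT cell and 82 UMIs in 45 KO cells of cluster 9. In CPM it stood at 1.61 (0.0406 to 8.95) and at 72.7 (57.8 to 90.2). Those levels gave a log2 ratio of 4.92 (2.98 to 10.82). The Klf2 ratio was 2.10 in cluster 5, 0.70 in cluster 6 and 1.87 in clusters 0 to 2. A Klf2 UMI was seen in 0.556% of WT and 15.6% of KO cells, and in 12.9% and 36.8% of the cells of clusters 15 and 16, whose B cells and macrophages express Klf2 themselves. In the resting cluster 2 it was seen in 1.36% and 4.69% of cells. Klf6, a related factor, was 30.5 in WT and 79.8 in KO cells, a log2 ratio of 1.36 (0.66 to 2.18). For Klf6 the ratio was 1.03 in cluster 5, 1.40 in cluster 6 and 1.03 in clusters 0 to 2. Of the SP maturation list, 3 of 15 genes were higher, Klf2, Gimap3 and H2-K1, and 0 lower, against 2.91% of all genes higher. The calls of Gimap3 and H2-K1 were lost under the 99.9% interval and under thinning to 1000 UMIs, which left Klf2.

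Cd4 was 122 (96.1 to 153) in WT and 208 (182 to 237) in KO cells, a log2 ratio of 0.76 (0.39 to 1.16). It was 0.56 in cluster 5, 0.63 in cluster 6 and 0.19 in clusters 0 to 2. Cd8a and Cd8b1 had log2 ratios of 0.28 and 0.42 and did not reach 1.5-fold. Epsti1, an interferon-induced gene, was 33.7 in WT and 116 in KO cells. Its log2 ratio was 1.76 in cluster 9, 3.47 in cluster 5, 0.45 in cluster 6 and 2.83 in clusters 0 to 2. Dnajc15, a mitochondrial chaperone, was 72.2 and 238, with log2 ratios of 1.71, 1.42, 0.47 and 2.09 in the same order. Rell1 rose from 2 to 49 UMIs. Its log2 ratio was 3.45 in cluster 9, 1.41 in cluster 5, 1.38 in cluster 6 and 1.40 in clusters 0 to 2. Klf2, Klf6 and Rell1 were called higher in each of these groups, so their rise was not particular to cluster 9. The 57 KO UMIs of Prss2 came from only 4 cells.

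Ctsl, which encodes the lysosomal protease cathepsin L, was lower in the KO cells. It was 745 (679 to 816) in WT and 133 (113 to 156) in KO cells, 5.59-fold lower, a log2 ratio of −2.48 (−2.76 to −2.22). It was seen in 65.0% and 37.2% of cells. The ratio was −2.35 in cluster 5, −1.50 in cluster 6 and −2.82 in the resting clusters 0 to 2. Bcl2 was 263 and 168, a log2 ratio of −0.65 (−0.96 to −0.34), against −0.57 in cluster 5 and 0.00 in cluster 6. With cells thinned to 1000 UMIs the Bcl2 ratio in cluster 9 was −0.54 and no longer called. The other named genes that were lower, Igf1r, Rnf219, Crem, Zmym1, Kdm4c, Daxx and Ccdc115, did not pass the 99.9% interval. H1f5, a linker histone, did, with a log2 ratio of −1.02.

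For the interferon response genes the clusters are set side by side, since they share their libraries. In cluster 9, 2 of 15 genes were higher in KO, Ifi203 and Xaf1, and 0 lower, with a median log2 ratio of −0.01. Both calls were lost under thinning, and that of Xaf1 under the 99.9% interval too. In cluster 5, where 4% of 9054 genes were called, 2.82% higher and 1.18% lower, 8 of 17 interferon genes were higher and 0 lower. In clusters 0 to 2, where 3.89% were called, 2.7% higher and 1.19% lower, 8 of 19 were higher and 0 lower. In the SP cluster 6, where 9.03% were called, 6.5% higher and 2.53% lower, 0 of 20 were higher and 15 lower. Isg15 was 41.7 in WT and 27.5 in KO cells of cluster 9, 25.7 and 40.1 in cluster 5, and 250 and 93.5 in cluster 6. Whether these clusters differ in their response was not tested.

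Of 34 Cdc42, actin and ERM genes, 1 was higher in KO, Cdc42ep3, an effector of Cdc42, and 0 were lower, with a median of 0.02, a share close to the 2.91% of all genes. Actb was 12900 in WT and 11838 in KO cells. Among 8 cell cycle genes with enough UMIs 1 was lower, Mcm6, and among 18 of glycolysis and biosynthesis 2 were higher, Pfkp and Myc, beside 1.71% of all genes lower and 2.91% higher. None of these calls, nor that of Cdc42ep3, passed the 99.9% interval, and those of Mcm6, Pfkp and Myc were also lost under thinning. Chosen after their values were seen, Wnt8b had 23 UMIs in the WT and 0 in the KO cells of cluster 9, and Gm45315 had 4 and 94. These differences were not particular to cluster 9. Wnt8b had 52 and 1 UMIs in cluster 5 and 348 and 6 in clusters 0 to 2. Gm45315 had 4 and 193 in cluster 5 and 38 and 1843 in clusters 0 to 2. Vim, an intermediate filament gene also chosen in this way, was 104 and 233 CPM. Its log2 ratio was 1.15 in cluster 9, 0.54 in cluster 5 and 0.71 in cluster 6.

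The defining markers of other cell types were looked for in cluster 9. Of 7 B cell markers 2 had a UMI in WT and 4 in KO cells, summing to 191 and 239 CPM, of which Ighm gave nearly all, and Cd79a and Iglc2 had 0. Macrophage markers summed to 28.9 and 13.3 with Csf1r and Adgre1 at 0, and dendritic cell markers came to 11 and 18 UMIs with Itgax and Flt3 at 0. Gamma-delta and double-negative cell markers summed to 41.7 and 47.0, with Kit and Trgc1 at 0. Innate-like T cell markers summed to 3.21 and 4.43 with Zbtb16 at 0, thymic epithelial markers to 12.8 and 23.9 with Psmb11 at 0, and red cell markers to 9.63 and 1.77 with Alas2 at 0. The part of these markers in the differences between libraries was not tested.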

How the data were processed

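Reads were processed by the authors with Cell Ranger 3.0.2, STAR and Seurat on mm10 per the labels, and UMI counts per gene and cell were deposited without normalization, with a table of cluster numbers. The deposited column of mitochondrial percent holds 0 throughout, and this share was recomputed from the counts. All 13683 cells had between 200 and 6000 genes and were kept, and the cell number the study states is larger. Conditions were read from the cell names.

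UMIs were summed by cluster and library over 20282 genes with Python 3.11.15, numpy 2.4.6 and pandas 2.3.3, divided by their total, and log2 ratios taken after adding 0.5 to each sum. Exact intervals (Poisson for sums, conditional binomial for ratios, Clopper-Pearson for shares) came from scipy 1.17.1 and cover counting error only. With 1 library per group there was no test. Calls needed 1.5-fold, an interval without a ratio of 1 and at least 20 UMIs. The computation was tested on simulated data. Scrublet (scanpy 1.11.5) marked 2 WT and 0 KO cells as doublets by its automatic threshold, which had not worked, so doublets were kept and the 6% highest scores left out as an alternative.

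Named genes are those of 22 lists and, per comparison, up to 10 called genes in each direction with the largest ratios, with at least 100 UMIs between clusters and 50 between libraries. Ribosomal, mitochondrial, Gm and Rik genes and TCR V segments were counted but not named, except Gm12840, Gm15340, Gm525, Gm45315 and A430093F15Rik, named after their values were seen. Cluster members and lists were chosen with earlier results of these data known. TCR constant sequences came from GENCODE vM21 on GRCm38. Alternatives were other scalings (edgeR 4.0.16 TMM, DESeq2 1.42.0 size factors), thinning, cell filters, UMI minimums, the number added, other denominators and resolutions 1.8 and 2.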

Additional observations from a re-analysis of the deposited data

Results flagged for a closer look

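Some genes were called between the libraries in opposite directions in cluster 9 and in a cluster beside it. No replicate exists, so the difference between clusters was not tested, and the clusters come from the same libraries. Egr2 had a KO over WT log2 ratio of −0.91 in cluster 9 and 0.64 in cluster 6. H1f5 had −1.02 and 0.70, Gpr183 −0.71 and 0.73, Map2k5 −0.86 and 0.67, Tacc2 −0.76 and 0.65, and Rilpl2 −0.68 and 0.68. H2-K1, an MHC class I gene, went the other way, with 0.94 (0.035 to 2.04) in cluster 9 and −1.04 (−1.19 to −0.90) in cluster 6, and its call in cluster 9 was lost under 4 alternatives. The call of H1f5 in cluster 9 was lost with cells thinned to 1000 UMIs, and that of Egr2 with the 99.9% interval. Against cluster 5, Olfr1369-ps1 had 1.08 in cluster 9 and −0.89. Egr2, H1f5 and H2-K1 were on the lists or named by rule, and the others were named after their values were seen.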

How the results depend on the processing

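No paired analysis was possible because each genotype has 1 library, and no replicate could be left out. Of 280 gene results, 171 kept their direction and their call under every alternative and 109 did not under at least 1. With cells thinned to 1000 UMIs the calls numbered 205 between libraries in cluster 9, of which 43 were among the 346 reported, 7 against cluster 5, 301 against cluster 6 and 580 against clusters 0 to 2, where fewer UMIs were left to test. With at least 50 UMIs there were 213 between libraries. With a 99.9% interval, added after the data were seen, these were 42, 3, 438 and 785. The share ratio of cluster 9 was 1.02 with clusters 5 and 9 as the denominator and between 1.29 and 1.32 under the others. Trbc1 against the resting cells reversed to 0.51 with cluster 2 alone and 0.51 with clusters 2 and 3, added after the data were seen, which hold cells with little Trbc1. Depth limits all statements on genes with few UMIs: a cluster with 0 UMIs is not shown to lack the transcript.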
